A study of Mus musculus with 4 samples.

Results

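Haematopoietic stem cells, the marrow cells that renew themselves and give rise to all blood lineages, change their transcript content as an animal ages, and published signatures of this change hold genes of many kinds beside the megakaryocyte and platelet genes that dominate them. The 10 genes described here are Clu, Aldh1a1, Alcam, Ramp2, Gpr183, Neo1, Sult1a1, Mt1, Cd38 and Fhl1, which were named as ageing genes of stem cells outside the megakaryocyte set and looked up by symbol among the 32227 genes of the deposited matrices. All 10 were found. They are a secreted chaperone, a set of adhesion molecules and receptors, enzymes of retinoid, sulfate and NAD metabolism, a metal-binding protein and a LIM-domain protein.

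Marrow came from wild-type (WT) mice that had ligation of the femoral artery (surgery), the main artery of the hind limb, or sham surgery. Both groups had received E0771 cells, from a mammary tumour of the mouse, 3 days before the operation, and marrow was taken 9 days after it. There was no group without tumour cells. The cells had been sorted as lineage-negative and cKit-positive, with or without Sca1, which enriches stem and progenitor cells, and were captured with PIPseq, a droplet method that needs no microfluidic chip. There were 4 surgery and 4 sham replicates, 2 of each in each of 2 batches (captures), told apart by hashtags, oligonucleotide labels put on the cells before pooling. The labels do not give the age or sex of the mice or tell if 1 mouse or several stand behind a hashtag, so the p-values below cover only the spread between hashtags. They also call batch 1 ligation and batch 2 sham as a whole, against the hashtag names, which were used here; every direction rests on those names.

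Of 18094 barcodes in batch 1 and 14179 in batch 2, 26880 cells with 1 hashtag were kept, between 1878 and 3523 per surgery replicate and between 2392 and 5872 per sham replicate, with 24773572 to 45330708 UMIs (unique molecular identifiers, counts of captured transcript molecules) per surgery replicate and 19450143 to 51682320 per sham replicate. Batch 2 was deeper, with replicate medians of 10291 to 12393.5 UMIs per cell, against 5860.5 to 7206.5 in batch 1. Only 5 barcodes were shared by the 2 libraries. Cells were given a type where the markers of that type stood above those of all others, and 7364 cells (27.4%) took none. A gate is a range of a marker score, so a cell near its limits could fall on either side. The stem cell gate held 790 cells, 141 of them near its limits, and was led by Mecom, Hlf, Esam, Myct1 and Angpt1, of which Mecom, Hlf, Esam and Angpt1 were gate markers. It also held neutrophil-granulocyte marker transcripts, summing to 3331 ± 407 CPM (the UMIs of a gene over all UMIs of the same cells, scaled to a fixed total) after surgery and 3218 ± 1010 CPM after sham (SD, n = 4 each). B cells (3138) and T, NK and innate lymphoid cells (484) were found although the sort was against lineage markers. No member is a gate marker.

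Expression of the members in the stem cell gate was examined first, because these genes are known from stem cells. In its 5663745 UMIs, 9 of the 10 members had at least 1 UMI, and 3 had enough for a test between surgery and sham. Alcam had 420 UMIs, Mt1 221 and Ramp2 173. Aldh1a1 had 43 UMIs, Fhl1 31, Clu 15, Neo1 10, Cd38 6 and Gpr183 1, and none of these passed the low-count filter of the test. Sult1a1 had none, which allows a level of up to 0.530 CPM over the 8 replicates together.

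**Figure D1:**
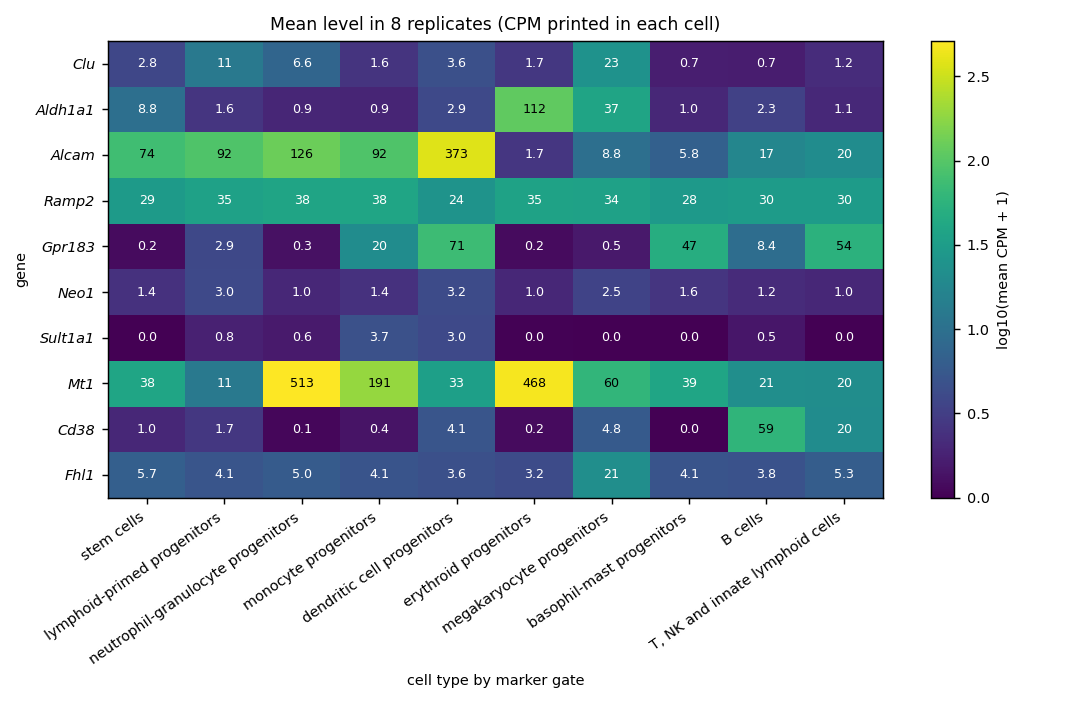
Mean CPM of the 10 members (rows) in 10 gated cell types (columns) over 8 replicates, with the colour on a log10(mean CPM + 1) scale. The highest entry of Clu and Fhl1 is in megakaryocyte progenitors, that of Cd38 in B cells and that of Mt1 in neutrophil-granulocyte progenitors, while Ramp2 is between 23.8 and 38.3 CPM in every type.

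Of the 3 members with the most UMIs, Alcam was found in the largest share of stem cells. It was detected in 29.6% of all 790, against 2.13% of erythroid progenitors, the type with its lowest level. Erythroid progenitors were sequenced deeper, with a median of 13333 UMIs per cell, against 6246.5 in stem cells. Alcam shares were higher in neutrophil-granulocyte (73.8%), dendritic cell (64.0%), monocyte (58.5%) and lymphoid-primed progenitors (36.1%), and lower in the remaining types. Each member is set here beside its lowest type, chosen by level, so a higher share in stem cells was nearly fixed in advance. Mt1 was detected in 16.1% of stem cells and in 7.78% of lymphoid-primed progenitors, its lowest type, at a median of 6614 UMIs. For equal depth, cells with at least 2000 UMIs were thinned to 2000 and gated anew, so the cells of each type differ. Mt1 was then in 5.03% of stem cells and 0.995% of lymphoid-primed progenitors. B cells (3.25%) and T, NK and innate lymphoid cells (1.83%) were then also below stem cells. The remaining types were above them, as dendritic cell (5.70%) and basophil-mast progenitors (5.73%) were by little. Ramp2 was detected in 19.0% of stem cells and in 8.88% of dendritic cell progenitors, its lowest type, at a median of 2935 UMIs, but at equal depth (2000 UMIs per cell) in 5.86% of stem cells and 7.12% of dendritic cell progenitors. Neo1 was in 0.759% of stem cells and in 1.26% of erythroid progenitors, its lowest type, and with thinned cells in 0.503% (3 cells) and 0.290% (6 cells). Fhl1 was in 3.54% of stem cells and 3.30% of the deeper erythroid progenitors, its lowest type. Clu was in 1.77% of stem cells and 0.319% of B cells (median 2805 UMIs), a contrast at unequal depth. At 2000 UMIs per cell the order turned, with Clu in 0 of 597 stem cells and 0.176% of B cells (4 of 2277). Aldh1a1 was in 4.68% of stem cells and 1.25% of monocyte progenitors (median 13790 UMIs). In the 597 stem cells gated after thinning, the shares were 10.9% for Alcam, 5.03% for Mt1, 2.68% for Aldh1a1 and 1.84% for Fhl1. Fhl1 was then in 0.387% of erythroid progenitors, and Clu, Gpr183 and Sult1a1 were in 0 stem cells. Sult1a1 was in 0 of 790 stem cells unthinned, which allows a share of up to 0.380%.

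The level in stem cells was then set against that in all other gated cells of the same replicates, in edgeR's quasi-likelihood test with the replicate as a block. Of the 10 members, 8 were lower in stem cells than in this sum at an adjusted p under 0.05 and none was higher. Types with the most UMIs weigh most in the sum, namely neutrophil-granulocyte (78349601 UMIs), monocyte (58254122) and erythroid progenitors (32112401). By mean level over the 10 types, stem cells took place 3 for Aldh1a1, 5 for Alcam and Clu and 6 for Cd38 and Mt1. They took place 8 for Ramp2 and 10 for Gpr183, and had no UMI of Sult1a1. The background is large, since 50.2% of the 15725 genes tested were called in this comparison, 3334 higher and 4560 lower. Mt1 averaged 38.0 ± 12.2 CPM in stem cells and 322 ± 23.3 CPM in the other cells (SD, n = 8), a log2 difference of -3.30 ± 0.08 (SE; adjusted p = 1.08e-67), and was lower in 8 of 8 replicates. Cd38 averaged 1.001 ± 0.902 CPM in stem cells and 4.36 ± 0.872 CPM in the others, a difference of -2.28 ± 0.47 (adjusted p = 1.48e-05), lower in 8 of 8 replicates. Both, and Gpr183, were called under every alternative tried.

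Gpr183 had 1 UMI in stem cells and 1947 in the other gated cells, a ratio of levels of 0.0192 (95% interval 0.000485 to 0.107, exact binomial, counting error only). Sult1a1 had 0 and 267 UMIs, so its level was at least 2.38-fold lower in stem cells, taking a floor of 3 UMIs over the group. Aldh1a1 (-1.59 ± 0.20, adjusted p = 2.09e-11), Clu (-1.01 ± 0.36, adjusted p = 0.0144), Ramp2 (-0.51 ± 0.12, adjusted p = 0.000107) and Alcam (-0.37 ± 0.08, adjusted p = 5.92e-05) were also lower in stem cells, and each of these 4 calls was lost under another scaling or depth. Aldh1a1, Clu and Ramp2 were lower in 7 of 8 replicates each. Alcam was lower in only 5 of 8, at 74.3 ± 17.2 CPM in stem cells and 81.7 ± 7.71 CPM in the others (SD, n = 8). With library totals only, the median of all genes was 0.23, against -0.03 with TMM scaling, and the calls were 5352 higher and 2886 lower; there the call was lost for Clu (-0.75, adjusted p = 0.0794), Ramp2 (-0.25, adjusted p = 0.0693) and Alcam (-0.11, adjusted p = 0.261). With thinned cells it was lost for Ramp2 (-0.31, adjusted p = 0.384) and Aldh1a1 (-0.49, adjusted p = 0.295). Clu and Sult1a1 did not pass the low-count filter with thinned cells. Neo1 (0.12 ± 0.53) and Fhl1 (-0.04 ± 0.29) did not pass the test (adjusted p = 0.873 and 0.934), and the sign of Fhl1 turned with thinned cells (0.63) and with library totals only (0.22).

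Each member had its own order of levels over the 10 types, given here as mean ± SD over the 8 replicates. Clusterin (Clu, chr14:65968483-65981547 on GRCm38, plus strand) is a secreted chaperone and apolipoprotein that binds receptors of the LDL receptor family and Trem2. It was highest in megakaryocyte progenitors, at 23.0 ± 6.07 CPM, then in lymphoid-primed progenitors (11.4 ± 5.07) and neutrophil-granulocyte progenitors (6.62 ± 1.85), and was 2.81 ± 2.54 CPM in stem cells. Neighbouring types in this order overlapped throughout. Over the 80 sums of type and replicate, the genes with a mean of at least 20 CPM whose log2(CPM + 1) was most like that of Clu were Lims1 (Pearson r = 0.66) and Qdpr (r = 0.63). Such correlations describe sums that share libraries and cell types and carry no test.

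Among the adhesion molecules and receptors, Alcam (chr16:52248996-52454074, minus strand), the cell adhesion molecule CD166, which binds CD6 and itself, stood apart in dendritic cell progenitors. Its level there was 373 ± 80.9 CPM, and the lowest replicate (269 CPM) was above the highest of neutrophil-granulocyte progenitors (152 CPM). Neutrophil-granulocyte, lymphoid-primed and monocyte progenitors and stem cells followed with overlapping ranges (126, 92.2, 91.6 and 74.3 CPM). Stem cells were separated from the next type, T, NK and innate lymphoid cells (19.9 ± 13.2 CPM), and erythroid progenitors were lowest with 1.66 ± 1.35 CPM. Fam102b (r = 0.86) and Bex6 (r = 0.84) had the most similar pattern.

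Ramp2 (chr11:101246028-101259546, plus strand) encodes a receptor activity-modifying protein that joins the receptor Calcrl to form a receptor for adrenomedullin. It was nearly even over the types, with 38.3 ± 1.5 CPM in monocyte progenitors, 29.2 ± 5.98 in stem cells and 23.8 ± 8.57 in dendritic cell progenitors, and each type overlapped its neighbour. Its most similar genes were Glrx2 (r = 0.70) and Rpl7, a ribosomal protein (r = 0.70). Its partner Calcrl was measured in stem cells, with 155 ± 16.2 CPM after surgery and 153 ± 18.8 CPM after sham.

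Gpr183 (chr14:121952551-121965195, minus strand), the oxysterol receptor EBI2 that positions B cells and dendritic cells in lymphoid tissue, was highest in dendritic cell progenitors (70.8 ± 20.4 CPM), T, NK and innate lymphoid cells (54.4 ± 32.0) and basophil-mast progenitors (47.3 ± 13.8), which overlapped each other. Monocyte progenitors, at 19.9 ± 3.08 CPM, were separated from basophil-mast progenitors. Erythroid progenitors (0.205 ± 0.381 CPM on 5 UMIs) and stem cells (0.2001 ± 0.566 CPM on 1 UMI) were at the low end and overlapped. Anxa6 was most alike (r = 0.84). Neo1 (chr9:58874687-59036441, minus strand), the receptor neogenin for repulsive guidance molecules and netrin-1, lay between 0.992 and 3.20 CPM in every type with all neighbours overlapping, and its closest patterns, Ptpn11 and Coq2, had an r of only 0.39.

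Aldh1a1 (chr19:20492715-20643465, plus strand) oxidises retinaldehyde to retinoic acid. Its level was 112 ± 10.9 CPM in erythroid progenitors and 36.9 ± 9.37 CPM in megakaryocyte progenitors, each separated from the next type, and 8.78 ± 5.22 CPM in stem cells, the highest of the rest. Aqp1, the water channel of red cells, and Smim1, which carries the Vel blood group in humans, were most alike (r = 0.87 each). Its close copy Aldh1a7 may share reads with it, since the counting rule for multi-mapping reads was not known here. Sult1a1 (chr7:126672865-126676432, minus strand), a sulfotransferase of phenols, was highest in monocyte progenitors (3.67 ± 0.7999 CPM) and had no UMI in stem cells, megakaryocyte progenitors, basophil-mast progenitors or T, NK and innate lymphoid cells; Gng10 and Ctsh were most alike (r = 0.71 each). Cd38 (chr5:43868553-43912375, plus strand), an enzyme that cleaves NAD outside the cell, was highest in B cells at 58.5 ± 10.9 CPM, separated from T, NK and innate lymphoid cells at 19.7 ± 10.4 CPM. It had no UMI in basophil-mast progenitors. Tmem163 and Lef1, a transcription factor of lymphoid precursors, were most alike (r = 0.86 each).

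Fhl1 (chrX:56731787-56793346, plus strand), a LIM-domain protein known mainly from muscle, was highest in megakaryocyte progenitors (20.7 ± 3.37 CPM), separated from stem cells (5.68 ± 3.18 CPM), which came next in order and overlapped all 8 types below. R3hdm4 and 0610010K14Rik were most alike (r = 0.66 and 0.65). Clu and Fhl1, although listed outside the megakaryocyte set, thus had their highest mean in the megakaryocyte gate, and only for Fhl1 was that gate separated from the next type.

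Metallothioneins bind zinc and copper, and their genes are switched on by the zinc sensor MTF1 through metal response elements in their promoters. Mt1 (chr8:94179082-94180327, plus strand) lies beside its close relative Mt2 (chr8:94172664-94173568, plus strand). Their promoters are printed, since both are near genes of one family whose levels could be compared across the types. Each runs from 250 bases before to 50 after the gene start in RefSeq's annotation of GRCm38.p6, and capitals mark matches to TGCACNC or TGCGCNC, the core letters of the metal response element, on either strand; no match overlaps another.
Mt1, chr8:94178839-94179138, plus strand: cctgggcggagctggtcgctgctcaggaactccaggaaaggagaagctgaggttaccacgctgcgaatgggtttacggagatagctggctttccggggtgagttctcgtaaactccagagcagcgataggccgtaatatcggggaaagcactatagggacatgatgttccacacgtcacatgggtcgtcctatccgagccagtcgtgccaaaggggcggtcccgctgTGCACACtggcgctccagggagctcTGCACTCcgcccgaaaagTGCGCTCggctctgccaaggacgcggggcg
Mt2, chr8:94172368-94172667, plus strand: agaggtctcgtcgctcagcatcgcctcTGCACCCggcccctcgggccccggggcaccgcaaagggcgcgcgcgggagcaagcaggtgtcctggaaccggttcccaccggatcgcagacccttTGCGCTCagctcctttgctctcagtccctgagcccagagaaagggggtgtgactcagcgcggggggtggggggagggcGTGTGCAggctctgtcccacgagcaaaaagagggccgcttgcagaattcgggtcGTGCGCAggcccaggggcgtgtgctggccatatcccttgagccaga
The Mt1 window holds 3 matches, which begin at -23, 2 and 20 counted from RefSeq's gene start as 0. The Mt2 window holds 4, which begin at -223, -128, -50 and 4. The gene coordinates given above come from another annotation, GENCODE, whose Mt2 start (94172664) lies close to the end of the Mt2 window (94172667). Where transcription begins in these cells was not examined, so the counts of 3 and 4 do not compare whole promoters. At least 1 match is in 25.7% of all 32851 promoters of that table, at least 3 in 1.97% and at least 4 in 0.517%. A match describes letters and is not a site of binding.

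Mt1 averaged 513 ± 26.6 CPM in neutrophil-granulocyte progenitors and 468 ± 57.2 CPM in erythroid progenitors, overlapping each other, and 191 ± 16.02 CPM in monocyte progenitors, separated from both. Stem cells had 38.0 ± 12.2 CPM. Mt2 was 645 ± 73.7 CPM in erythroid progenitors and 8.87 ± 2.35 CPM in neutrophil-granulocyte progenitors, where Mt1 was high. In the other 8 types it averaged between 2.78 and 8.16 CPM, and 5.005 ± 4.03 CPM in stem cells. Over the 80 sums the r of Mt1 and Mt2 was 0.52, while Mrpl51 (r = 0.87) and Uqcrq (r = 0.86), genes of the mitochondrial ribosome and respiratory chain, were most like Mt1. Reads that match both metallothioneins could be counted for either.

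**Figure D2:**
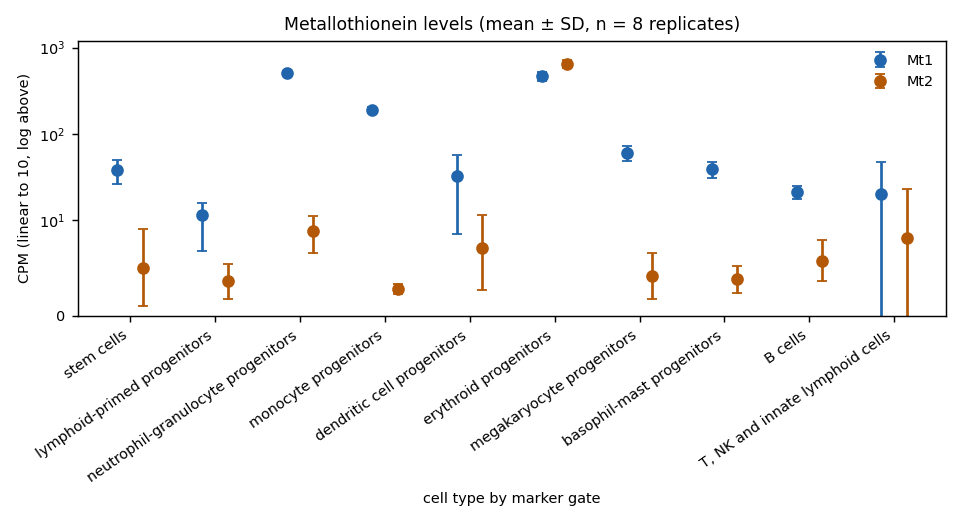
CPM of Mt1 and Mt2 in 10 gated types, as mean ± SD over 8 replicates; the axis is linear to 10 and logarithmic above, and error bars stop at 0. In erythroid progenitors Mt1 is at 468 and Mt2 at 645 CPM, whereas in neutrophil-granulocyte progenitors Mt1 is at 513 CPM and Mt2 at 8.87 CPM.

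The effect of surgery was tested first over all sorted cells, where all 10 members passed the low-count filter. None was called at an adjusted p under 0.05 by edgeR or by DESeq2, beside 0.0406% of the 17238 genes tested, and 1 member, Clu, had an unadjusted p under 0.05, as had 4.5% of all genes. Of the 10, 7 were higher and 3 lower after surgery, with a median log2 fold change of 0.07, against -0.0017 over all genes. In such sums, more cells of a type and more RNA per cell cannot be told apart.

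Clu had 5.13, 6.12, 5.93 and 4.21 CPM in the surgery replicates, against 4.01, 4.22, 2.91 and 3.19 CPM in the sham replicates (the first 2 of each from batch 1). The lowest surgery replicate and the highest sham replicate were nearly equal, and the other replicates separated. The log2 fold change was 0.60 ± 0.14 (edgeR unadjusted p = 0.00154, adjusted p = 0.804), with 0.45 in batch 1 and 0.73 in batch 2 as ratios of mean CPM, and 0.16 with thinned cells.

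Aldh1a1 had 15.1, 13.2, 10.1 and 14.7 CPM after surgery, against 14.96, 21.1, 20.2 and 13.2 CPM after sham. The groups overlapped, and the fold change was -0.38 ± 0.17 (unadjusted p = 0.0510, adjusted p = 0.9997). Erythroid progenitors, the type with its highest level, were 7.45% ± 0.865 of surgery cells and 9.04% ± 1.74 of sham cells, and within them Aldh1a1 was 109 ± 10.1 CPM after surgery and 114.5 ± 12.5 CPM after sham, a fold change of -0.09 ± 0.09. Cd38 was -0.20 ± 0.17 over all cells, beside B cell shares of 11.01% ± 0.403 after surgery and 12.7% ± 2.84 after sham; within B cells it was -0.21 ± 0.15.

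The other 7 members were between -0.04 and 0.21 over all cells. Mt1 had 291, 262, 306 and 316 CPM after surgery, against 297, 273, 270 and 262 CPM after sham, a fold change of 0.11 ± 0.07 that came from batch 2 (0.22) and not from batch 1 (-0.04). Alcam was 0.07 ± 0.05, Ramp2 0.06 ± 0.04 and Gpr183 0.07 ± 0.08. Neo1 was -0.04 ± 0.24, Sult1a1 0.21 ± 0.21 and Fhl1 0.13 ± 0.10. Each of these had an adjusted p of 0.9997.

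In stem cells, none of the 3 testable members was called, beside 0.0459% of 8723 genes, and none had an unadjusted p under 0.05. DESeq2 called none of them either. Alcam had 95.1, 100.3, 49.6 and 65.7 CPM after surgery, against 58.7, 73.7, 79.8 and 71.9 CPM after sham. Within batch 1 both surgery replicates were above the sham replicates and within batch 2 both were below them, so that the ratio of means was 0.56 in batch 1 and -0.40 in batch 2 on the log2 scale, and the fitted fold change was 0.06 ± 0.18 (adjusted p = 0.9999). Ramp2 had 17.3, 29.8, 28.8 and 34.8 CPM after surgery, against 26.1, 32.5, 27.8 and 36.5 CPM after sham, a fold change of -0.11 ± 0.23. Mt1 had 23.8, 53.3, 35.2 and 40.8 CPM after surgery, against 32.6, 23.8, 37.5 and 57.1 CPM after sham, a fold change of 0.07 ± 0.23 with batch ratios of 0.45 and -0.31. All 3 pairs of groups overlapped.

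**Figure D3:**
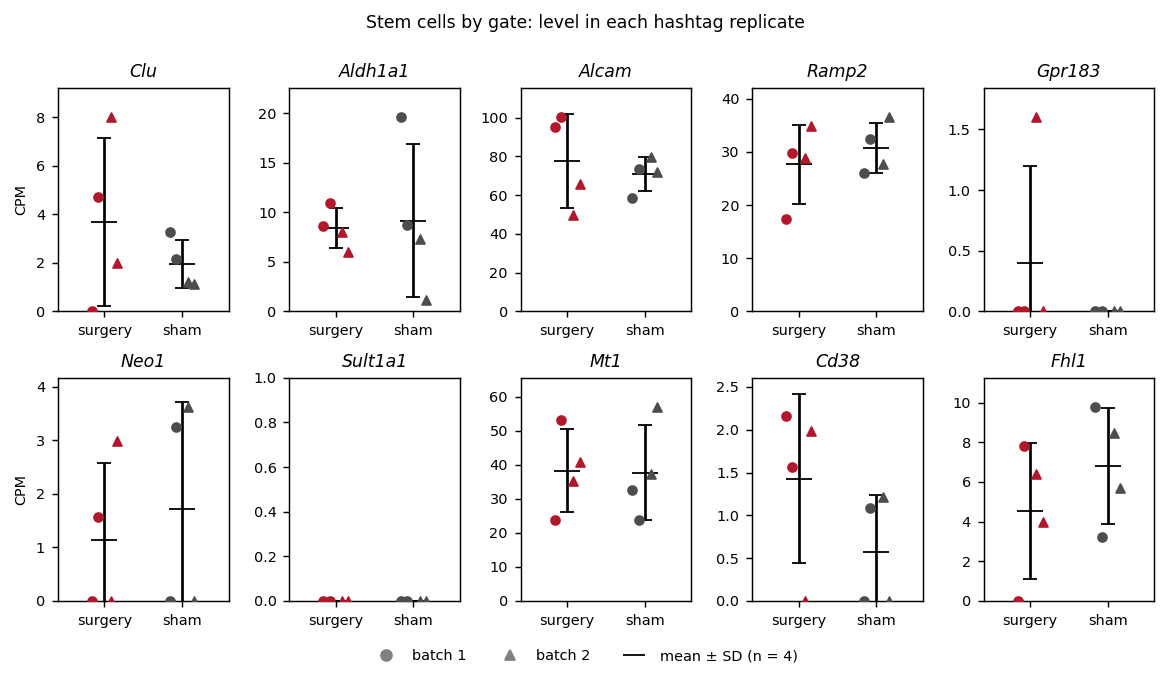
CPM of each member in the stem cell gate by hashtag replicate, surgery left and sham right, circles for batch 1 and triangles for batch 2, with mean ± SD (n = 4). Groups overlap in all panels, Sult1a1 is at 0 in all 8 replicates and Gpr183 in 7 of 8.

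The other 7 members rested on few UMIs in stem cells. Aldh1a1 had 4, 7, 5 and 6 UMIs in the surgery replicates and 6, 8, 6 and 1 in the sham replicates, and Fhl1 had 0, 5, 4 and 4 after surgery and 3, 3, 7 and 5 after sham. Clu had 0, 3, 5 and 2 UMIs after surgery and 1, 2, 1 and 1 after sham. Cd38 had 4 UMIs after surgery and 2 after sham, Neo1 4 and 6, and Gpr183 1 and 0. None of these 7 passed the low-count filter in stem cells, and none was called without the filter.

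Within the 10 gated types that could be tested, 42 of 100 pairs of member and type passed the low-count filter, 27 with a higher and 15 with a lower value after surgery. A pair can pass through its higher group alone, so these counts are given as a description. None of the 42 was called by edgeR or DESeq2, and 6 had an unadjusted p under 0.05, beside 3.11% to 8.13% of all genes in these types. Among all genes, edgeR called 0.278% of 8993 in lymphoid-primed progenitors, 0.0387% of 12918 in neutrophil-granulocyte progenitors, 0.0631% of 12680 in monocyte progenitors and 0.0199% of 10036 in B cells. It called 0.0% in dendritic cell, erythroid, megakaryocyte and basophil-mast progenitors and in T, NK and innate lymphoid cells, where DESeq2 also called none and between 177 and 450 genes had an unadjusted p under 0.05 in edgeR.

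**Figure D4:**
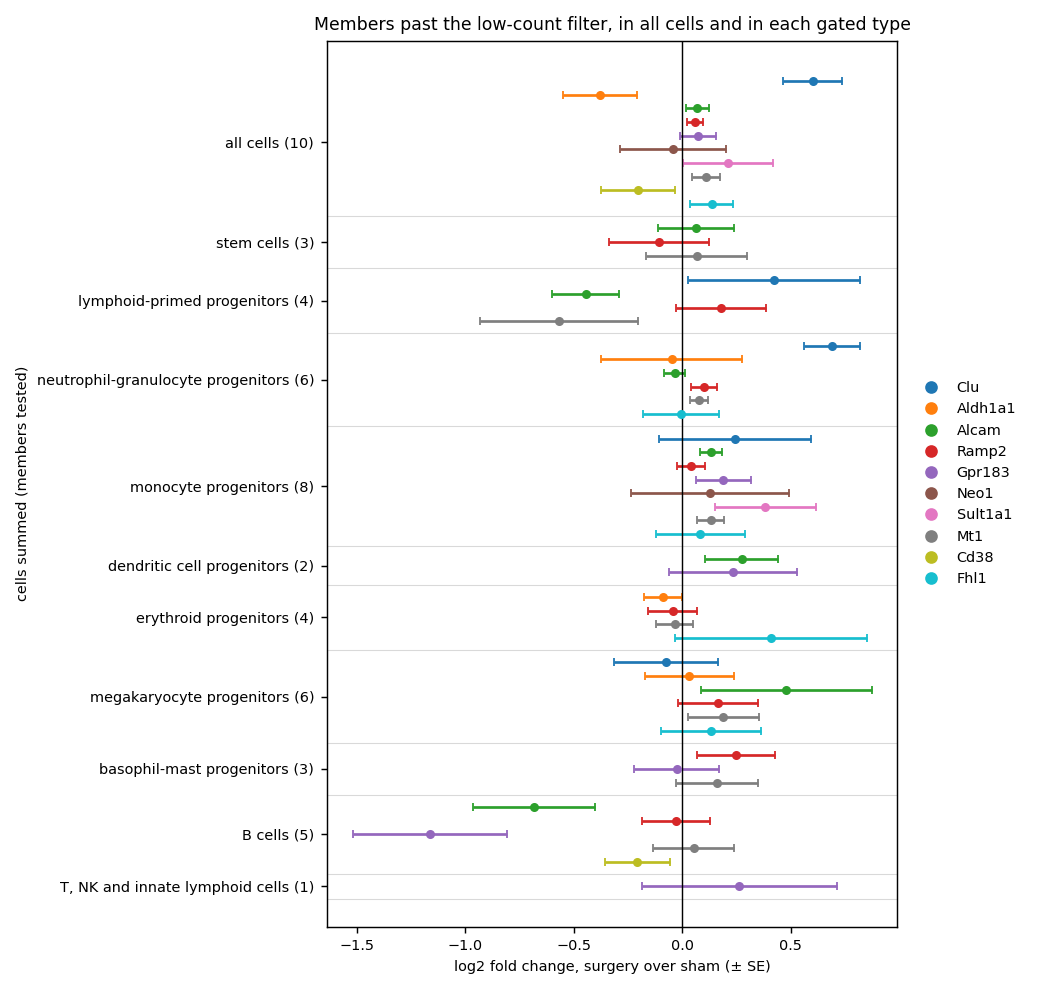
Log2 fold change of surgery over sham with its SE for each member past the low-count filter, in all cells and in each gated type (number of members in brackets). Clu in neutrophil-granulocyte progenitors (0.69) is the highest value among the gated types and Gpr183 in B cells (-1.16) the lowest; none passed the adjusted threshold.

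The clearest separation was that of Clu in neutrophil-granulocyte progenitors. Its level was 8.58, 9.40, 7.96 and 6.83 CPM in the surgery replicates (64, 64, 81 and 93 UMIs), against 5.28, 5.68, 4.51 and 4.76 CPM in the sham replicates (32, 80, 51 and 42 UMIs). The groups did not overlap, as for 1.97% of the genes tested there, and this was the only 1 of the 42 pairs of which that was true. The fold change was 0.69 ± 0.13 (unadjusted p = 8.11e-05), with an adjusted p of 0.0873 that missed the threshold and ranged from 0.00759 to 0.482 over the alternatives. The ratio was 0.71 in batch 1 and 0.67 in batch 2, and 0.65 to 0.73 with any 1 replicate left out. It was called without the low-count filter (0.68 ± 0.16, adjusted p = 0.00759) and in neutrophil-granulocyte clusters in place of the gate (0.77 ± 0.12, adjusted p = 0.0372), and under no other alternative.

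In every marker list summed over this gate the groups overlapped. Neutrophil-granulocyte markers (12 of 12 with UMIs) were 46172 ± 1894 CPM after surgery and 46212 ± 1413 CPM after sham. Markers of megakaryocyte progenitors, in which Clu is highest, were 176 ± 6.29 and 173 ± 13.7 CPM after surgery and sham (9 of 9 with UMIs), and those of lymphoid-primed progenitors 61.5 ± 7.36 and 62.6 ± 4.08 CPM (6 of 6). Monocyte markers were 205 ± 39.1 and 186 ± 9.72 CPM after surgery and sham, and B cell markers 98.5 ± 9.08 and 114 ± 9.95 CPM. The macrophage list summed to 172 ± 38.5 and 155 ± 32.5 CPM. It holds Vcam1, which is among the leading genes of this gate itself, so its sum does not measure macrophages here. The part of these lists in the Clu difference was not tested. The gate was 20.1% ± 6.11 of surgery cells and 17.1% ± 2.10 of sham cells.

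In the other types with testable Clu the groups overlapped. Clu was 22.6 ± 8.70 CPM after surgery and 23.4 ± 3.11 CPM after sham in megakaryocyte progenitors (-0.08 ± 0.24), 13.3 ± 6.24 and 9.58 ± 3.44 CPM in lymphoid-primed progenitors (0.42 ± 0.40), and 1.601 ± 0.465 and 1.55 ± 0.741 CPM in monocyte progenitors (0.24 ± 0.35). The difference of the surgery effect between neutrophil-granulocyte progenitors and stem cells, tested as an interaction, was -0.43 ± 0.81 for Clu (adjusted p = 1), and 0 of 7 testable members passed, beside 0.0149% of 13467 genes. It rested on 15 UMIs of Clu in stem cells.

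**Figure D5:**
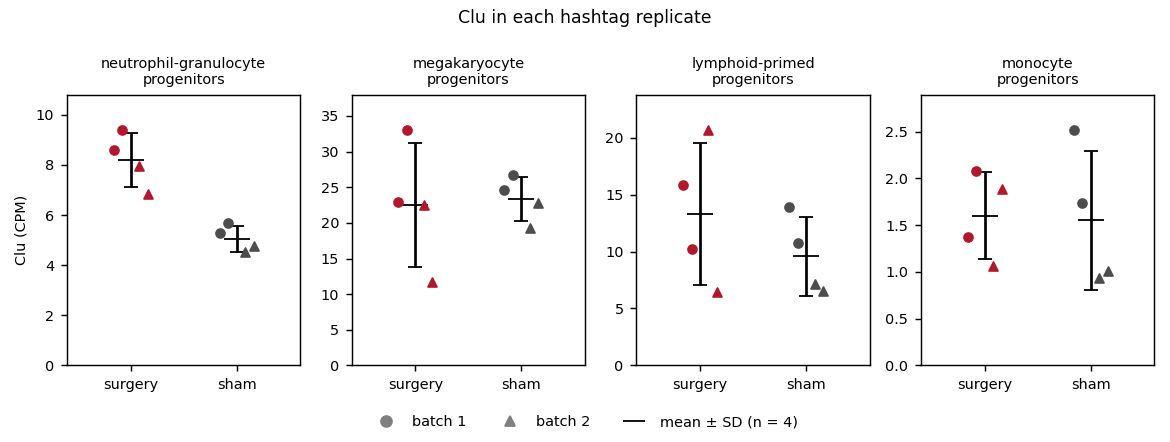
CPM of Clu by hashtag replicate in 4 gated types, surgery left and sham right, circles for batch 1 and triangles for batch 2, with mean ± SD (n = 4). In neutrophil-granulocyte progenitors the surgery replicates sit between 6.83 and 9.40 and the sham replicates between 4.51 and 5.68; in the other 3 types the groups overlap.

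Alcam had an unadjusted p under 0.05 in lymphoid-primed progenitors, B cells and monocyte progenitors. With these gates no value passed the adjusted threshold, and differences between these types were not tested. In lymphoid-primed progenitors it had 101.6, 100.1, 68.2 and 55.0 CPM after surgery, against 75.1, 126, 108 and 104 CPM after sham. Both surgery replicates of batch 2 were below all sham replicates and those of batch 1 were not, so the ratio was -0.78 in batch 2 and 0.0048 in batch 1, with a fitted fold change of -0.45 ± 0.15 (unadjusted p = 0.00712, adjusted p = 0.405, range over the alternatives 0.0193 to 0.819). With 1 more marker required in the gate it was called (-0.72 ± 0.15), and without surgery replicate 2 of batch 2 it was -0.27. Markers of dendritic cell progenitors, the type with the highest Alcam, summed in this gate to 972 ± 60.7 CPM after surgery (906 to 1052) and 1204 ± 68.0 CPM after sham (1113 to 1265), without overlap (7 of 8 with UMIs, Xcr1 at 0). Those of monocyte progenitors were 899 ± 48.9 CPM after surgery and 1001 ± 43.8 CPM after sham (9 of 9). Among all genes tested in these progenitors, 4.05% had groups without overlap. The dendritic list also summed to 581 ± 46.8 CPM after surgery and 604 ± 58.2 CPM after sham in stem cells. UMIs of this list were thus not confined to the dendritic cell gate, and which cells they came from was not tested. The part of both lists in the Alcam difference was not tested. In B cells it had 18.8, 4.75, 11.7 and 15.3 CPM after surgery, against 16.7, 19.6, 21.5 and 23.9 CPM after sham (-0.68 ± 0.28, unadjusted p = 0.0279, adjusted p = 0.9999), and the fold change ran from -1.03 to -0.39 with 1 replicate left out. In monocyte progenitors it was slightly higher after surgery within each batch, at 105.7, 106.2, 82.2 and 88.4 CPM, against 94.6, 99.7, 78.8 and 77.6 CPM after sham (0.13 ± 0.05, unadjusted p = 0.0160, adjusted p = 0.99998).

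Gpr183 in B cells had 3.92, 4.07, 8.77 and 4.08 CPM after surgery, against 6.36, 8.64, 10.1 and 21.02 CPM after sham. All 4 sham replicates were above the surgery replicates of their own batch, and the groups overlapped between batches. The fold change was -1.16 ± 0.35 on 110 UMIs (unadjusted p = 0.00471, adjusted p = 0.630). In its 3 highest types it was 0.23 ± 0.29 (dendritic cell progenitors), 0.26 ± 0.45 (T, NK and innate lymphoid cells) and -0.03 ± 0.20 (basophil-mast progenitors). Markers of dendritic cell progenitors, a type with high Gpr183, summed in the B cell gate to 859 ± 83.2 CPM after surgery and 965 ± 79.2 CPM after sham. Of these markers 6 of 8 had UMIs, with Siglech and Xcr1 at 0. UMIs of this list were not confined to the dendritic cell gate, and the part of the list in the Gpr183 difference was not tested. Mt1 in monocyte progenitors was 198 ± 19.3 CPM after surgery and 183 ± 8.68 CPM after sham (0.13 ± 0.06, unadjusted p = 0.0478; 0.060 to 0.19 with 1 replicate left out), with ratios of -0.0012 in batch 1 and 0.22 in batch 2. In neutrophil-granulocyte and erythroid progenitors, its highest types, it was 0.08 ± 0.04 and -0.04 ± 0.09.

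Genes that act with the members were taken from lists by role, 53 genes in all. In all cells 40 of the 53 could be tested and in stem cells 18; none was called in any of the 11 comparisons, and the median fold change was 0.01 in all cells and 0.02 in stem cells, against -0.0017 and 0.0067 over all genes. Of the Clu receptors and relatives in stem cells, Apoe, the lipid-carrying apolipoprotein E, was 204 ± 38.6 CPM after surgery and 265 ± 39.5 CPM after sham (-0.33 ± 0.12, unadjusted p = 0.00859, adjusted p = 0.9999), while Lrp8 (0.27 ± 0.25) and Vldlr (0.48 ± 0.33), receptors that can bind clusterin, had higher values that did not pass the test. Of the adrenomedullin receptor parts, Calcrl (0.02 ± 0.12) and Ramp1 (0.03 ± 0.09) were close to 0 in stem cells. Of 229 tests of the 53 genes, 13 had an unadjusted p under 0.05, beside 3.11% to 8.13% of all genes in these comparisons. The lowest was that of Nampt in basophil-mast progenitors (0.70 ± 0.18, edgeR unadjusted p = 0.000807, adjusted p = 0.9995). In megakaryocyte progenitors Apoe was 0.25 ± 0.09 (edgeR unadjusted p = 0.00800, adjusted p = 0.99999) and Calcrl -0.53 ± 0.17 (edgeR unadjusted p = 0.00377, adjusted p = 0.994). Differences between types were not tested for these genes. Mt2 over all cells was 67.3 ± 14.1 CPM after surgery and 89.2 ± 12.4 CPM after sham (-0.39 ± 0.14, unadjusted p = 0.0223), beside the lower erythroid share after surgery, whose part was not tested; in neutrophil-granulocyte progenitors it was 10.3 ± 0.991 and 7.39 ± 2.47 CPM (0.50 ± 0.15, unadjusted p = 0.00491, adjusted p = 0.824).

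A list of 18 further ageing genes, chosen like the members with earlier results of these data known, had 16 testable genes in all cells, 14 higher and 2 lower after surgery with a median of 0.12 (-0.0017 over all genes), and 5 in stem cells with a median of 0.18 (0.0067 over all genes). None was called in either. Slamf1, tested in stem cells, is also a marker of the stem cell gate. Vwf was among the leading genes of the megakaryocyte gate, so this list is not confined to genes outside the megakaryocyte set. Selp, the adhesion receptor P-selectin, had the lowest unadjusted p in stem cells, at 39.7 ± 4.95 CPM after surgery and 24.4 ± 9.07 CPM after sham (0.64 ± 0.24, unadjusted p = 0.00979, adjusted p = 0.9999).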

How the data were processed

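Single-cell RNA was measured in sorted marrow of 4 surgery and 4 sham hashtag replicates. The authors deposited raw UMI counts (whole numbers) of each gene in each barcode, followed by the counts of the hashtags. Cell Ranger and the build GRCm38 are named in the submitters' processing notes; its version, strand handling and counting of multi-mapping reads are not given in the sources used here. In batch 2 the hashtag lines are in another order than the label, and names were used.

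A barcode was kept where exactly 1 hashtag reached 200 counts and where it had 1000 or more UMIs from 500 or more genes, with no more than 10% of them mitochondrial. Hashtags were 22.2% and 16.1% of all counts in batches 1 and 2 and stayed out of library sizes. Scrublet called 0.592% and 0.671% of barcodes, which were removed, while 602 and 322 barcodes carried several hashtags, so doublets within a hashtag mostly remain. A cell took the type with the highest mean z-score of marker log values within its batch, with at least 3 markers detected, a mean of at least 0.5 and a margin of at least 0.2. Types with under 10 cells in a replicate were not tested. Thinned cells were gated anew on the thinned counts.

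Counts were summed per replicate and type and tested with edgeR 4.0.16 (R 4.3.3; filterByExpr, TMM, batch as a term, quasi-likelihood test, two-sided, Benjamini-Hochberg adjustment over all genes tested). CPM use UMI totals without TMM factors. Batch ratios are log2 ratios of mean CPM. The code was tested on simulated data. Intervals and floors of 3 UMIs cover counting error only. The members, the partner and ageing lists and the markers were chosen with earlier results of these data known. Named genes are the members, those most alike (1 of them is not reported here), and partners by role. Alternatives were DESeq2 1.42.0, no TMM, no low-count filter, no batch term, a replicate block, each replicate left out, other hashtag, barcode, doublet, gate and depth settings; library totals in the stem cell comparison and clusters for neutrophil-granulocyte progenitors were added after seeing the data. The 4 replicate numbers shared within a batch are only numbers. Of the gene identifiers, 32098 of 32227 were found in GENCODE mouse release 21, the source of gene coordinates; RefSeq's promoter table held 8 of the 10 members.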

Additional observations from a re-analysis of the deposited data

Results flagged for a closer look

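In 104 groups of 4 replicates, 3 values lay far from the other 3 replicates of their group, where chance alone marks about 1 group in 20. Gpr183 in B cells was 8.77 CPM in surgery replicate 1 of batch 2 (9 UMIs), while the other surgery replicates were between 3.92 and 4.08 CPM. Ramp2 in basophil-mast progenitors was 31.3 CPM in sham replicate 1 of batch 2, while the other sham replicates were between 23.0 and 24.4 CPM. Mt1 in megakaryocyte progenitors was 73.5 CPM in the same sham replicate, while the others were between 49.2 and 52.7 CPM.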

How the results depend on the processing

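Of 210 counts of called members recomputed for the 11 comparisons of surgery with sham, 207 stayed at 0. The count was 1 in neutrophil-granulocyte progenitors without the low-count filter and with clusters in place of the gate (Clu both times), and 1 in lymphoid-primed progenitors with 1 more marker required in the gate (Alcam). Against the other gated cells, 5 members were called in stem cells with library totals only and 4 with thinned cells, in place of 8. With thinned cells Clu, Sult1a1 and Neo1 did not pass the low-count filter of this comparison, so the calls of Clu and Sult1a1 were not retested. Of 19 fold changes recomputed, 6 changed sign under at least 1 alternative fit; ratios within 1 batch, which are no fits, also turned for Mt1 in all cells (-0.040) and monocyte progenitors (-0.0012) and for Alcam in lymphoid-primed progenitors (0.0048). With thinned cells, Alcam was -0.024 and Ramp2 -0.13 in all cells, Alcam -0.036 in stem cells, Fhl1 0.63 in stem against other cells and Ramp2 -0.23 in the difference between neutrophil-granulocyte progenitors and stem cells. With clusters in place of the gate, Alcam was -0.13 and Ramp2 0.027 in stem cells. The cluster named stem cells held 2496 cells, against 790 in the gate, so it is a broader group. With library totals only, Fhl1 was 0.22 in stem against other cells. With 1 replicate left out, Alcam ran from -0.050 to 0.18, Ramp2 from -0.24 to 0.0091 and Mt1 from -0.24 to 0.35 in stem cells, and Neo1 from -0.18 to 0.20 in all cells. The causes were not tested. The replicate block, on numbers that do not pair samples (r of deviations 0.0053 in batch 1 and 0.0043 in batch 2), gave 0.70 for Clu (adjusted p = 0.180) in neutrophil-granulocyte progenitors and called no member. The gate of 1 more marker could not be applied to all cells. Depth left 1 member testable in T, NK and innate lymphoid cells, 2 in dendritic cell progenitors and 3 in stem cells, where the other 7 had at most 43 UMIs.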
